A study of Mus musculus with 6 samples.

Results

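Cholesterol and fatty acids are built from the same acetyl groups by a pair of enzyme pathways, and 31 genes of these pathways and of their control were followed in kidneys of iron-deficient mouse pups. The members were taken by name: enzymes from acetyl-CoA to cholesterol, the SREBP transcription factors with the proteins that hold them back, enzymes of fatty acid synthesis, and the sterol carrier Stard4. All 31 were among the 24422 gene rows of the count table, and 30 of them were among the 15145 genes with enough reads to be tested. RNA of whole kidneys was sequenced from 3 control and 3 iron-deficient (FeD) pups, all wild type C57BL/6 and labelled as postnatal day 15. Iron was changed through the mother. The food of FeD dams, a synthetic diet, contained 2 to 6 ppm iron and that of control dams 220 ppm iron, by the labels from 1 month before mating and on through pregnancy and nursing, whereas the methods of the study give a shorter time before mating. The dams were 8 weeks old when the diets began. The model therefore has no targeted cell type, and the labels give neither the litter nor the sex of a pup, so P values measure only the spread between these kidneys.

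The SREBP proteins are made as precursors in the membrane of the endoplasmic reticulum, where SCAP senses sterols and INSIG proteins retain the complex when sterols are plentiful. When sterols are scarce, SCAP escorts SREBP to the Golgi, proteases release its active part, and that part switches on the genes of sterol synthesis (mainly SREBP-2, from Srebf2) or of fatty acid synthesis (mainly SREBP-1c, from Srebf1). In the kidney, tubule cells both make and take up lipids, and several steps of sterol and fatty acid synthesis use enzymes that hold iron.

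Total counts ranged from 16189041 to 20374327 in control and from 13732173 to 20853293 in FeD kidneys, and the 31 genes took 0.205% to 0.216% of them in control and 0.193% to 0.203% in FeD kidneys. Expressed as normalized counts, a floor of 3 counts lies between 2.59 and 3.90, where a normalized count is the raw count scaled by library size and TMM factor to a common depth. One kidney stood apart: FeD 2 had high levels of markers of adrenal cortex, a neighbouring steroid-making gland rich in cholesterol enzymes. The summed level of 9 adrenal cortex markers was 913.6 CPM (counts scaled to library size times TMM factor) in FeD 2, 89.59 in control 1 and 19.68 to 52.54 in the other 4 kidneys. Cyp11b1, an adrenal hydroxylase, had 2375 normalized counts in FeD 2 and at most 5.18 elsewhere. Values that rest on FeD 2 are therefore given with and without it, and the part of adrenal tissue in them was not tested. With FeD 2 included, 4 of the 5 adrenal markers tested were higher in FeD kidneys (80%, against 22.4% of all genes), 3 of them without overlap. Leaving out FeD 2 does not even out all of these markers. Mc2r had 7.67, 1.11 and 4.45 normalized counts in control and 48.0, 252 and 36.3 in FeD kidneys. Akr1b7 had 187, 211 and 206 in control and 227, 1847 and 678 in FeD kidneys. Fat markers differed as well: of 8 markers of white and brown fat, 6 were lower and 1 was higher in FeD kidneys. Plin1, which coats fat droplets of adipocytes, had 257, 345 and 337 normalized counts in control kidneys and 37.0, 54.6 and 82.0 in FeD kidneys. The summed fat markers did not separate the groups (517.8 to 567.3 CPM in control and 483.0 to 583.3 in FeD kidneys), because Fabp4, which endothelial cells also express, makes up most of the sum and was higher in FeD kidneys. All 5 markers of proximal tubule were lower, and their summed level was 6878 to 7344 in control and 2756 to 2973 in FeD kidneys. The largest part of the control sum was Slc34a1, which was 4.67-fold lower. Slc5a2 was 29.6-fold lower, whereas Lrp2, Cubn and Aqp1 were 1.39-fold, 1.36-fold and 1.37-fold lower, so the sum does not give the amount of proximal tubule. No fat or tubule marker was at 0 in all kidneys. Summed markers of liver were 45.09 to 58.69 CPM in control and 152.8 to 195.2 in FeD kidneys. Most of that sum was Ttr, which was 3.60-fold higher, and Apoa2 was 3.81-fold higher (adjusted P = 0.00011). Serpina1c, too low to be tested, had 0.96, 1.11 and 2.67 normalized counts in control and 15.0, 15.6 and 9.50 in FeD kidneys. The liver genes Alb (log2 fold change -0.16, adjusted P = 0.88) and Fgb (0.11, adjusted P = 0.83) did not pass. Summed blood markers were 138.4 to 198.0 CPM in control and 43.7 to 85.27 in FeD kidneys, with Slc4a1, the anion exchanger of red cells and of some collecting duct cells, 2.68-fold lower. The 4 globin genes were at 0 in all kidneys, although the blood markers Alas2 and Slc4a1 had reads in every kidney. Alas2 had 336, 762 and 488 normalized counts in control and 413, 200 and 92.4 in FeD kidneys. Why the globin genes were at 0 was not tested, so the 0 gives no level for them or for blood. Of 5 macrophage markers, Cd68 and Itgam were 2.17-fold and 2.59-fold higher, Csf1r was lower and 2 did not pass, with summed levels of 113.0 to 119.8 in control and 97.7 to 117.4 in FeD kidneys. All 3 markers of collecting duct were higher in FeD kidneys. The part of these tissues in the differences below was not tested. In RNA of whole kidneys, fewer cells of a type and less RNA per cell cannot be told apart.

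**Figure D1:**
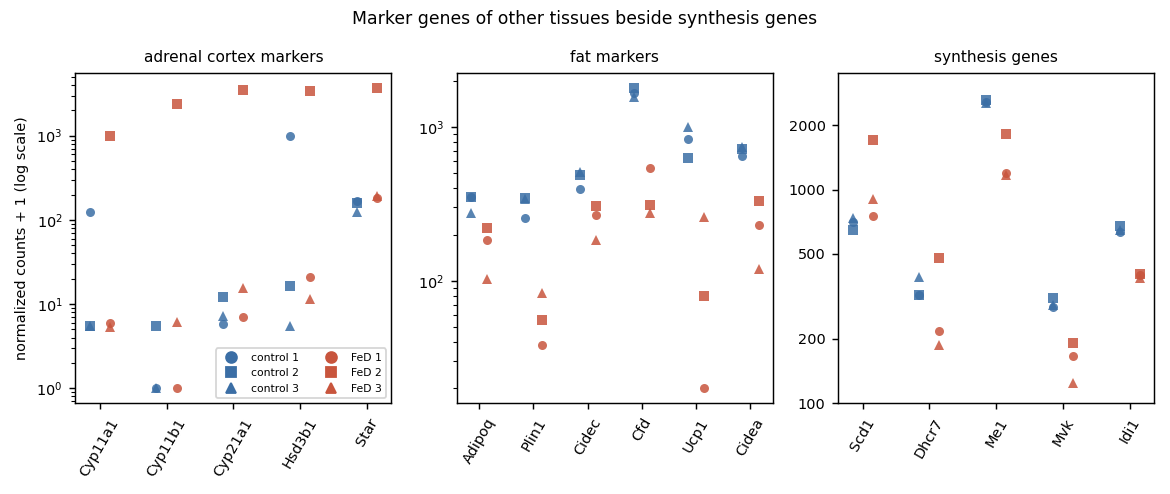
Normalized counts + 1 (log scale) in each of 3 control (blue) and 3 FeD (red) kidneys for markers of adrenal cortex, markers of fat and 5 synthesis genes; each symbol shape is one replicate number. The adrenal markers stand out in FeD 2 and, for Cyp11a1 and Hsd3b1, less so in control 1, and Scd1 and Dhcr7 are highest in FeD 2.

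Most synthesis genes that differed were lower in FeD kidneys. Among the 30 tested members, 11 were lower, 3 were higher and 16 did not pass the test at an adjusted P under 0.05 (edgeR). Over all genes tested, 23.3% were lower, 22.4% were higher and 45.7% passed in either direction, so the members passed about as often as other genes (46.7%) but with a larger share lower (36.7%) than higher (10%). The median log2 fold change of the members was -0.18, against 0.00 over all genes. All changes were moderate, from -0.89 to 0.68 on the log2 scale, and no member passed the test with a change of at least 2-fold, a size that 4.34% of all genes reached upward and 5.69% downward. At an unadjusted P under 0.05, 0 members were changed 2-fold in either direction, and DESeq2 also gave 0. The FeD and control values did not overlap for 16 of the 30 members, 12 below and 4 above the control range, whereas 58.1% of all genes showed no overlap. With control 1 and FeD 2 both left out, 11 members were lower and 2 were higher.

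**Figure D2:**
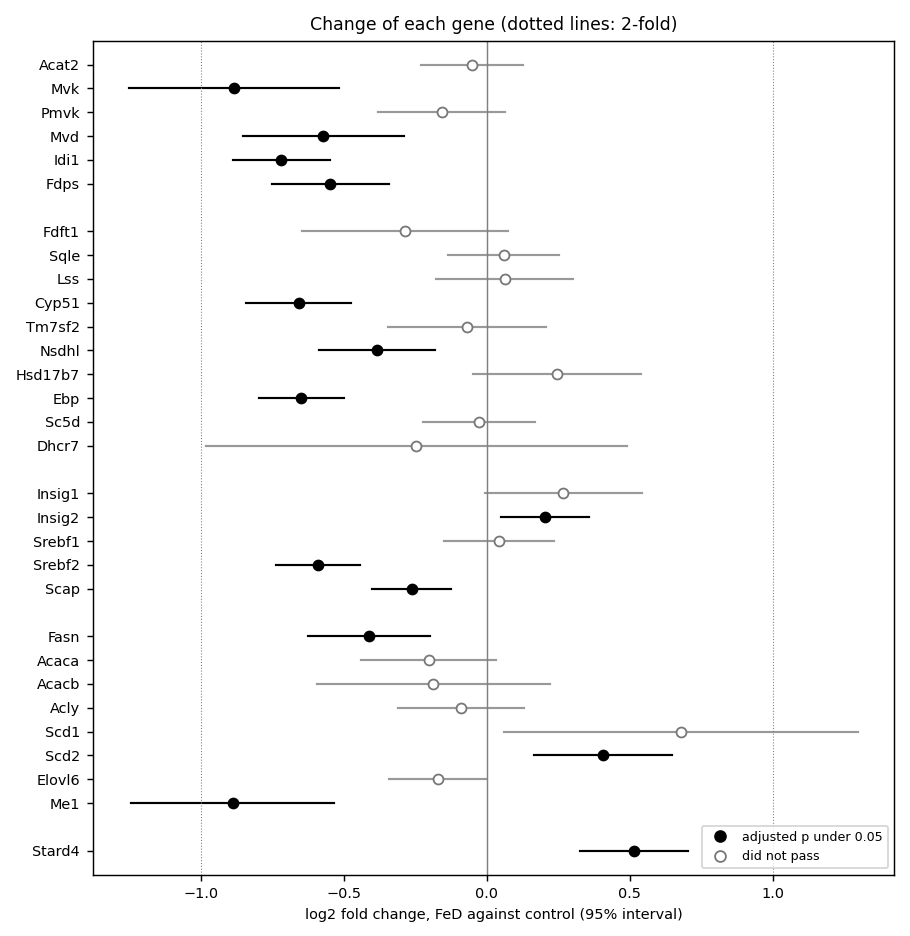
Log2 fold change (FeD against control) of the 30 tested members with its 95% confidence interval, grouped by role; filled points mark genes that passed the test (adjusted P under 0.05, edgeR) and open points those that did not. The mevalonate steps lie furthest to the left as a group (median -0.56), and no sterol enzyme passed the test upward.

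The mevalonate steps, which turn acetyl units into the isoprenoid building blocks of sterols, held the largest share of lower genes. Of 7 genes listed and 6 tested, 4 were lower (66.7%, against 23.3% of all genes). None was higher (0, against 22.4% of all genes) and 2 did not pass. Mvk (chr5:114894278-114910600 of mm9) encodes mevalonate kinase. It had 281, 311 and 288 normalized counts in control kidneys 1, 2 and 3 (mean 293 ± 15.8, SD, n = 3) and 165, 191 and 124 in FeD kidneys (160 ± 34.0). Every FeD kidney was far below every control kidney, a log2 fold change of -0.88 ± 0.16 (SE), or 1.84-fold lower (adjusted P = 0.0028). FeD 2 was the highest FeD kidney here, and without it the log2 fold change was -1.01 (adjusted P = 0.0019).

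Idi1 (chr13:8884852-8891641), whose product isomerizes isopentenyl diphosphate, gave the tightest separation of these steps. It had 631, 672 and 644 normalized counts in control and 398, 400 and 386 in FeD kidneys, which differed among themselves by less than the control kidneys did. The log2 fold change was -0.72 ± 0.07 (1.64-fold lower, adjusted P = 0.00021). Mvd, which decarboxylates mevalonate diphosphate, had 539, 615 and 663 normalized counts in control and 467, 352 and 402 in FeD kidneys. The ranges did not overlap, and the log2 fold change was -0.57 ± 0.12 (adjusted P = 0.0063). Fdps, the farnesyl diphosphate synthase at the branch to sterols, heme A, ubiquinone and prenylated proteins, had 555, 532 and 572 normalized counts in control and 400, 395 and 344 in FeD kidneys. It was 1.46-fold lower (adjusted P = 0.0017).

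The other members of the mevalonate group did not pass the test. Pmvk, the kinase that follows Mvk, averaged 472 ± 36.3 normalized counts in control and 424 ± 34.3 in FeD kidneys, and its 95% confidence interval of the log2 fold change ran from -0.38 to 0.07 (adjusted P = 0.22). Acat2, a thiolase that joins acetyl-CoA units, averaged 1126 ± 74.5 and 1086 ± 67.3 normalized counts (interval -0.23 to 0.13, adjusted P = 0.61). For Acat2, 31.8% of the windows of 100 bases in its transcripts recur in another gene, so its reads were in part ambiguous. Hmgcs1, the HMG-CoA synthase, was listed at 0 counts in all 6 kidneys. A count of 0 allows up to 3 counts, by counting error only, and the mm9 annotation used here holds no gene of that name, so the 0 gives no level for Hmgcs1.

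**Figure D3:**
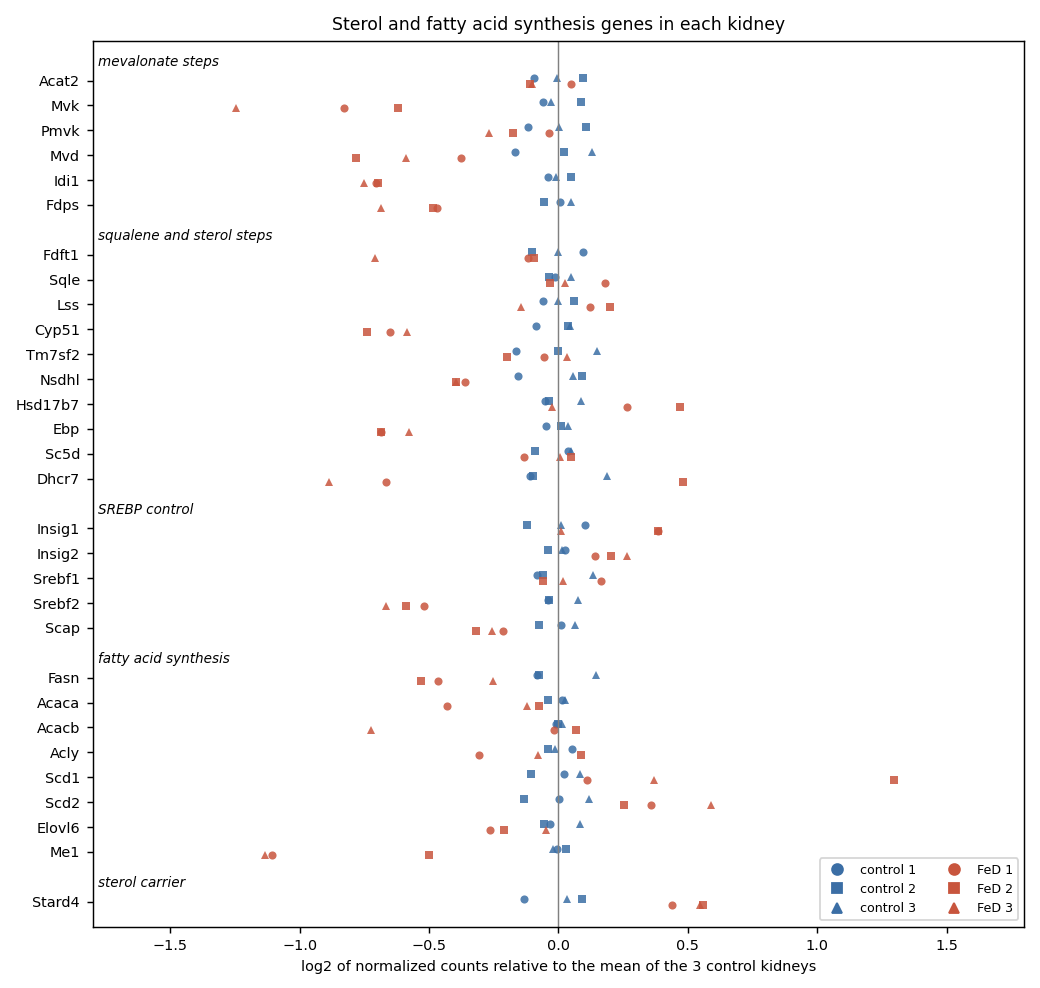
Each kidney's level relative to the mean of the control kidneys (log2 scale) for the tested members, with control kidneys in blue and FeD kidneys in red; symbols mark the replicate number. The FeD points of Idi1, Ebp, Cyp51 and Srebf2 cluster tightly below the control points, whereas those of Dhcr7, Acacb and Scd1 spread widely.

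Past the isoprenoid steps, the pathway joins farnesyl units into squalene, closes the ring to lanosterol and trims lanosterol to cholesterol. In this group of 10 genes, 3 were lower (30%, against 23.3% of all genes), 0 were higher and 7 did not pass. The 3 lower genes act after ring closure. Cyp51 (chr5:4081145-4104746) encodes the cytochrome P450, a heme enzyme, that removes the first methyl group of lanosterol. It had 872, 949 and 954 normalized counts in control and 589, 553 and 616 in FeD kidneys. All FeD kidneys were well below the control range, a log2 fold change of -0.66 ± 0.08 (1.58-fold lower, adjusted P = 0.00047).

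Ebp (chrX:7762455-7770638), the sterol isomerase that moves a double bond in the ring, was among the most strongly supported differences. Its normalized counts were 1348, 1403 and 1430 in control and 867, 865 and 933 in FeD kidneys. The gap between the groups was larger than the range within either, and Ebp was 1.57-fold lower (log2 fold change -0.65 ± 0.06, adjusted P = 0.00018). Nsdhl, a dehydrogenase that takes part in removing the remaining methyl groups, had 627, 744 and 726 normalized counts in control and 544, 531 and 531 in FeD kidneys. The ranges did not overlap, and the log2 fold change was smaller, -0.38 ± 0.09 (adjusted P = 0.0084).

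The genes that make and close squalene did not pass the test. Sqle, the squalene epoxidase, had 626, 618 and 655 normalized counts in control and 717, 618 and 643 in FeD kidneys, with overlapping ranges (log2 fold change 0.06, 95% confidence interval -0.13 to 0.25). Lss, the cyclase that forms lanosterol, likewise overlapped, with 440 ± 18.7 against 461 ± 55.9 normalized counts (interval -0.18 to 0.30). Fdft1, the squalene synthase, had 858, 749 and 804 normalized counts in control and 740, 753 and 492 in FeD kidneys. FeD 3 alone was far lower than the rest, and the log2 fold change of -0.28 ± 0.16 was within the spread (adjusted P = 0.17). Of the exon bases of Fdft1, 26.9% overlap Ctsb on the opposite strand, so reads of both genes may be mixed there.

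Among the late reductases, Dhcr7, which makes cholesterol from its last precursor, depended on FeD 2, the kidney with the highest adrenal markers. It had 318, 321 and 391 normalized counts in control kidneys and 216, 479 and 186 in FeD kidneys. FeD 1 and FeD 3 were below every control kidney and FeD 2 was above every one. With all kidneys the log2 fold change was -0.25 ± 0.32 (adjusted P = 0.56), and without FeD 2 it was -0.76 (adjusted P = 0.0041). With control 1 also left out it was -0.82 (adjusted P = 0.013). Sc5d, a desaturase with a non-heme iron centre, averaged 492 ± 25.8 normalized counts in control and 484 ± 31.4 in FeD kidneys (interval -0.22 to 0.17). Tm7sf2, a sterol reductase, averaged 250 ± 27.1 and 239 ± 19.2 (interval -0.34 to 0.21). Hsd17b7, a ketoreductase that works with Nsdhl, was the sterol enzyme with the highest fold change, 0.25 ± 0.13, with 343, 348 and 378 normalized counts in control and 428, 494 and 351 in FeD kidneys. The FeD 3 value fell inside the control range and the test was not passed (adjusted P = 0.15). Over the 17 sterol enzymes together, of which 16 were tested, 7 were lower (43.8%, against 23.3% of all genes). The number higher was 0 (against 22.4% of all genes), also 0 at an unadjusted P under 0.05 and 0 with DESeq2. The median log2 fold change was -0.26.

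The 4 members with the smallest adjusted P, chosen after their values were seen, were Ebp, Idi1, Srebf2 and Cyp51, and their promoters are shown because they moved together and each holds a box for NF-Y, a factor known to act beside SREBP. The windows of 300 bases run from 250 bases before to 50 after the start, as RefSeq gives them for GRCm38.p6, and were placed on mm9 by an exact match. Capitals mark CCAAT or its reverse complement. The boxes begin 45 and 14 bases before the start in Idi1, 170 and 55 bases before it in Ebp, 29 in Cyp51 and 135 in Srebf2. The windows lie at chr13:8884602-8884901 (plus strand), chrX:7770589-7770888 (minus strand), chr5:4104648-4104947 (minus strand) and chr15:81977449-81977748 (plus strand).
Idi1: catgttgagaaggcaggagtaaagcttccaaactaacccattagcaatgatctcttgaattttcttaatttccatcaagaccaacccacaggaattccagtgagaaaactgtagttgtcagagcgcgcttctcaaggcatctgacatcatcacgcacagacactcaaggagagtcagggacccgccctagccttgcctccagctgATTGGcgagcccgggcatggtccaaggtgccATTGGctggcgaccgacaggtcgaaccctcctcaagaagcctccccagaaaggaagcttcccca
Ebp: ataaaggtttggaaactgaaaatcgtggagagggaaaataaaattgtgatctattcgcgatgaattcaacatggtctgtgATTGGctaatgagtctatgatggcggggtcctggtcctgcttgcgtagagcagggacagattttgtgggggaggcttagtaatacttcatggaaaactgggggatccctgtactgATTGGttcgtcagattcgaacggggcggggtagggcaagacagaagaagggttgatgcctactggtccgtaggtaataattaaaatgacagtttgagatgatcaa
Cyp51: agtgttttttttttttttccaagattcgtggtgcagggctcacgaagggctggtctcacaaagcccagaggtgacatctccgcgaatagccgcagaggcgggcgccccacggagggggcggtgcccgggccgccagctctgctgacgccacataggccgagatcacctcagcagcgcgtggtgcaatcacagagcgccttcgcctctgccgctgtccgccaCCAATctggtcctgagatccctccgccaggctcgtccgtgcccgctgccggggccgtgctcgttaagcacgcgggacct
Srebf2: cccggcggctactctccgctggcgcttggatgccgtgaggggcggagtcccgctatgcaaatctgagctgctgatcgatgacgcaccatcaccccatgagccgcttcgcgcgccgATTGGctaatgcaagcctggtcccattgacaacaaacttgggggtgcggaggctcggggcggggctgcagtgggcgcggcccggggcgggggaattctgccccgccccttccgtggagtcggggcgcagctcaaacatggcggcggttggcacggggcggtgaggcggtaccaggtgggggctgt

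Promoter windows were found for 25 of the 31 members, 34 windows in all. CCAAT, searched on both strands, was in 21 of these 25 members and in 22 of the 34 windows, against 41.1% of all genes and 37.4% of all windows of that length in the table. The Sp1 box GGGCGG, which shares no bases with a CCAAT match in these windows, was in 20 of 25 members, against 38.2% of all genes. The sterol element core TCACNCCAC was in 1 member, Hmgcs1, as TCACCCCAC, against 1.44% of all genes. These shares are over 27025 genes with a window, which include genes not tested here. A share over the genes expressed in these kidneys was not taken. Members that were lower did not stand out among the members: 9 of the 10 lower genes with a window held CCAAT, as did 10 of the 13 that did not pass. A match is a description of letters in the window and not a bound site, and the absence of a match says only that these letters are not there.

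The genes that control SREBP moved in different directions. Srebf2 (chr15:81977696-82035806), the precursor of the main activator of sterol synthesis, had 2177, 2186 and 2361 normalized counts in control and 1564, 1491 and 1412 in FeD kidneys. The gap between the groups was more than the range within either, and Srebf2 was 1.51-fold lower (log2 fold change -0.59 ± 0.06, adjusted P = 0.00027). Srebf1, the precursor for fatty acid genes, had 1514, 1541 and 1761 normalized counts in control and 1797, 1541 and 1624 in FeD kidneys. The ranges overlapped, with FeD 1 above all control kidneys. Its log2 fold change was 0.04 (interval -0.15 to 0.23, adjusted P = 0.70). Within each kidney, the ratio of Srebf2 to Srebf1 reads was 1.44, 1.42 and 1.34 in control and 0.870, 0.968 and 0.869 in FeD kidneys. The ratio of reads was thus lower in every FeD kidney than in any control kidney. A ratio of 1 does not mark equal levels, since the exons of Srebf1 (5634 bases) are longer than those of Srebf2 (4989 bases). Scaled by exon length, library size and TMM factor, Srebf2 and Srebf1 averaged 25.1 and 15.9 in control and 16.7 and 16.4 in FeD kidneys. The difference of the log2 ratio of reads was -0.63, and its exact two-sided permutation P was 0.1, the smallest that 3 against 3 kidneys allow. It was the largest difference among 4 such pairs compared.

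Scap, the sterol sensor that escorts SREBP, was lower by less. It had 2002, 1889 and 2080 normalized counts in control and 1715, 1598 and 1665 in FeD kidneys, without overlap (log2 fold change -0.26 ± 0.06, adjusted P = 0.0087). The call was lost with control 1 and FeD 2 left out (-0.22, adjusted P = 0.098), and 18.9% of the exon bases of Scap overlap a gene on the opposite strand. Insig2, one of the retention proteins, was the upregulated gene of this group, with 957, 914 and 947 normalized counts in control and 1037, 1081 and 1128 in FeD kidneys. The groups did not overlap but lay close, 1.15-fold higher in FeD (adjusted P = 0.036). The call did not survive leaving out any control kidney (adjusted P = 0.097, 0.15 and 0.10 without control 1, 2 and 3). Insig1, the retention protein that is itself a known SREBP target, had 524, 449 and 492 normalized counts in control and 638, 638 and 492 in FeD kidneys. FeD 3 lay within the control range, and the log2 fold change of 0.27 ± 0.12 had an adjusted P of 0.099. The ratio of Insig1 to Insig2 reads was 0.547, 0.492 and 0.520 in control and 0.615, 0.590 and 0.436 in FeD kidneys (exact permutation P = 0.8).

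**Figure D4:**
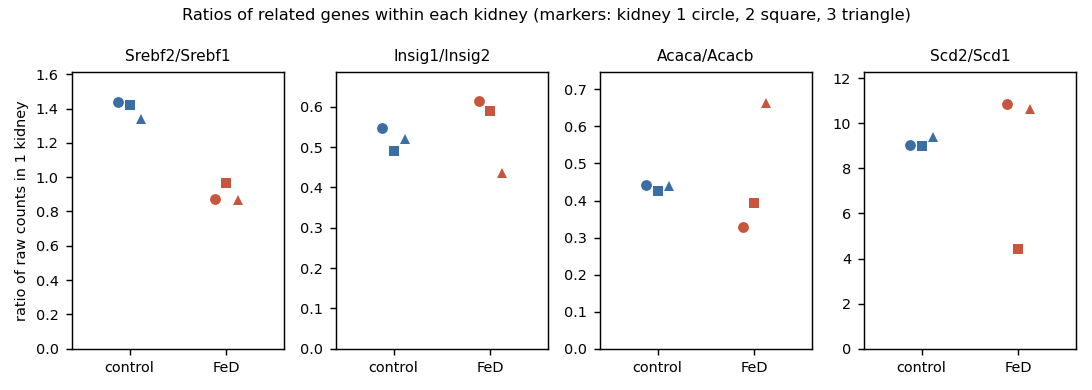
Ratio of raw counts within each kidney (linear axis from 0) for 4 pairs of related members, with control kidneys in blue and FeD kidneys in red. The Srebf2 to Srebf1 ratio, not corrected for gene length, is lower in all 3 FeD kidneys than in any control kidney. In the other pairs the FeD kidneys lie on both sides of the control range.

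Of 8 genes of fatty acid synthesis, 2 were lower (25%, near the 23.3% of all genes), 1 was higher (12.5%, against 22.4%) and 5 did not pass. Me1 (chr9:86474970-86589947), the malic enzyme that supplies NADPH for the chain, had the lowest fold change of all members. It had 2555, 2617 and 2527 normalized counts in control and 1190, 1812 and 1170 in FeD kidneys. All FeD kidneys were below the control range, with FeD 2 between the groups, and Me1 was 1.85-fold lower (log2 fold change -0.89 ± 0.15, adjusted P = 0.0023). Without FeD 2 its log2 fold change was -1.10 (adjusted P = 4.8e-05). Fasn, the fatty acid synthase, had 2284, 2296 and 2672 normalized counts in control and 1749, 1671 and 2029 in FeD kidneys, 1.33-fold lower without overlap (adjusted P = 0.0079). The fat markers above were lower in the same kidneys, and adipocytes are rich in Fasn and Me1. The part of fat tissue in these differences was not tested.

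Scd1 and Scd2 encode desaturases that place the first double bond, and Scd2 passed the test upward. Scd2 (chr19:44368166-44381354) had 6380, 5813 and 6917 normalized counts in control and 8169, 7601 and 9577 in FeD kidneys. All FeD kidneys were above the control range, 1.33-fold higher (log2 fold change 0.41 ± 0.11, adjusted P = 0.014), and without control 2 the call was lost (0.34, adjusted P = 0.071). Scd1, its neighbour on the chromosome (chr19:44468941-44482199), had 707, 647 and 738 normalized counts in control and 753, 1712 and 901 in FeD kidneys. Its 3 FeD values were above all control values, yet FeD 2, with its adrenal markers, was far above the others. The log2 fold change of 0.68 ± 0.27 did not pass (adjusted P = 0.070), and without FeD 2 it was 0.27 (adjusted P = 0.074). The ratio of Scd2 to Scd1 reads was 9.03, 8.98 and 9.37 in control and 10.8, 4.44 and 10.6 in FeD kidneys, so FeD 2 alone was low (exact permutation P = 1). In the transcripts of Scd1, 2.64% of the windows of 100 bases recur in another Scd gene.

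The genes that supply and lengthen the chain did not pass the test. Acly, which splits citrate into cytosolic acetyl-CoA, averaged 3090 ± 103 normalized counts in control and 2904 ± 393 in FeD kidneys (interval -0.31 to 0.13). Acaca, the carboxylase of fatty acid synthesis, had 785, 758 and 793 normalized counts in control and 578, 739 and 715 in FeD kidneys. These did not overlap, but the gap was small beside the FeD spread and the test was not passed (log2 fold change -0.20 ± 0.10, adjusted P = 0.14). Acacb, the carboxylase tied to control of fatty acid oxidation, had 1773, 1783 and 1801 normalized counts in control and 1767, 1873 and 1080 in FeD kidneys. FeD 3 alone was low (log2 fold change -0.19 ± 0.18, adjusted P = 0.42). The ratio of Acaca to Acacb reads, at 0.443, 0.425 and 0.440 in control and 0.327, 0.395 and 0.662 in FeD kidneys, did not separate the groups (exact permutation P = 1). Elovl6, which lengthens palmitate, averaged 1863 ± 99.3 and 1654 ± 132 normalized counts (log2 fold change -0.17, adjusted P = 0.094).

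Stard4, a soluble protein that carries cholesterol between membranes, was higher in FeD kidneys. It had 711, 828 and 797 normalized counts in control and 1054, 1146 and 1137 in FeD kidneys. Every FeD kidney was above every control kidney, 1.43-fold higher (log2 fold change 0.52 ± 0.08, adjusted P = 0.0016).

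Per exon length, the members differed widely in level. The RPKM scale divides reads by the length of all annotated exons of a gene and by library size times TMM factor. On it, Scd2 had the highest control level, 65.4 ± 5.67 (SD, n = 3), and was at 86.7 ± 10.4 in FeD kidneys. Me1 came next in control kidneys at 40.2 and was at 21.8 in FeD kidneys. Ebp (33.8 in control) and Acly (32.8) followed and differed by less than their spread, and in FeD kidneys Ebp was at 21.5 and Acly at 30.8. At the low end in control kidneys were Lss (2.28), Hsd17b7 (3.91), Tm7sf2 (4.02) and Acaca (4.28). Mvk, the mevalonate step with the lowest fold change, had 6.14 ± 0.330 in control and 3.35 ± 0.712 in FeD kidneys.

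Among FeD kidneys, 9 of the 16 tested sterol enzymes were lowest in FeD 3, 6 in FeD 2 and 1 in FeD 1, and 7 were highest in FeD 2, 6 in FeD 1 and 3 in FeD 3. Of the 8 fatty acid genes, 4 were lowest in FeD 1, 2 in FeD 2 and 2 in FeD 3, and 5 were highest in FeD 2, 3 in FeD 3 and 0 in FeD 1. FeD 2 thus most often had the highest value in both roles. The median level of the 30 members against the mean of the control kidneys was -0.17, -0.10 and -0.20 on the log2 scale in FeD 1, 2 and 3, and -0.04, -0.04 and 0.05 in control 1, 2 and 3. All 3 FeD medians were thus below all 3 control medians.

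Other genes of the same pathways were taken from lists chosen by function. Among 9 other enzymes of sterol and isoprenoid synthesis, 4 were lower (44.4%, against 23.3% of all genes) and 1 was higher. Msmo1, the methyl oxidase with a non-heme iron centre that acts after Cyp51 and before Nsdhl, had 567, 600 and 612 normalized counts in control and 367, 388 and 263 in FeD kidneys (log2 fold change -0.81 ± 0.14, adjusted P = 0.0023). All FeD kidneys were below the control range. Pdss2, of the ubiquinone side chain (-0.65), and Fnta, a farnesyl transferase subunit (-0.25), were also lower. Ggps1, which makes the geranylgeranyl unit from the product of Fdps, was higher (0.40, adjusted P = 0.020).

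Among 14 other regulators of SREBP and of lipogenesis, 4 were lower (28.6%) and 2 were higher (14.3%), and the 42.9% that passed in either direction was near the 45.7% of all genes. Thrsp, a lipogenic protein abundant in liver and fat, had 554, 602 and 660 normalized counts in control and 140, 162 and 183 in FeD kidneys, 3.73-fold lower (adjusted P = 3.3e-05). This was a larger difference than in any member. Mid1ip1, a relative of Thrsp that activates acetyl-CoA carboxylase, was at -0.76 on the log2 scale. Nr1h3, the sterol receptor LXR alpha that turns on Srebf1, had 463, 458 and 464 normalized counts in control and 275, 320 and 262 in FeD kidneys (-0.70, adjusted P = 0.00082). Mbtps2, the protease that makes the final cut releasing SREBP, had 438, 390 and 426 normalized counts in control and 589, 616 and 621 in FeD kidneys (0.54, adjusted P = 0.0011).

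Of 14 tested genes for desaturation, elongation and precursor supply, 6 were lower (42.9%, against 23.3% of all genes) and 2 were higher. Acss2, which makes cytosolic acetyl-CoA from acetate, had 1954, 2162 and 2125 normalized counts in control and 1037, 1194 and 1143 in FeD kidneys (1.85-fold lower, adjusted P = 8.4e-05). Elovl2, a long-chain elongase (-0.59), Slc25a1, the carrier that exports mitochondrial citrate (-0.41), and Tecr, the last reductase of elongation (-0.35), were lower too.

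Genes of sterol uptake, transport and storage were mostly higher in FeD kidneys, as Stard4 was. Of 16 genes, 10 were higher (62.5%, against 22.4% of all genes) and 1 was lower, and the median log2 fold change was 0.40, against 0.00 over all genes tested. Abca1, the exporter of cell cholesterol, had 1785, 1687 and 1728 normalized counts in control and 3858, 4892 and 4832 in FeD kidneys (2.61-fold higher, adjusted P = 4.4e-05). Cyp27a1, the mitochondrial P450 that makes a hydroxysterol, had 228, 251 and 246 normalized counts in control and 908, 968 and 696 in FeD kidneys (3.54-fold higher, adjusted P = 5.2e-05). Both fold changes were larger than that of any member. Mylip, a ligase that marks lipoprotein receptors for breakdown (0.94), and Npc1, which lets cholesterol leave lysosomes (0.74), were higher as well. The lower gene was Lcat, which esterifies plasma cholesterol (-1.47, adjusted P = 0.0023).

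Of 14 triglyceride genes, 4 were higher and 3 lower, shares (28.6% and 21.4%) near those of all genes (22.4% and 23.3%). Dgat2, which makes triglyceride, had 2754, 2760 and 3184 normalized counts in control and 1652, 1676 and 1333 in FeD kidneys (log2 fold change -0.90, adjusted P = 0.00032). Gpam, the first acyltransferase of the pathway, was higher (0.73), as were the lipin Lpin3 (0.64) and Mogat1, an acyltransferase for monoglyceride (1.51, adjusted P = 0.0017).

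**Figure D5:**
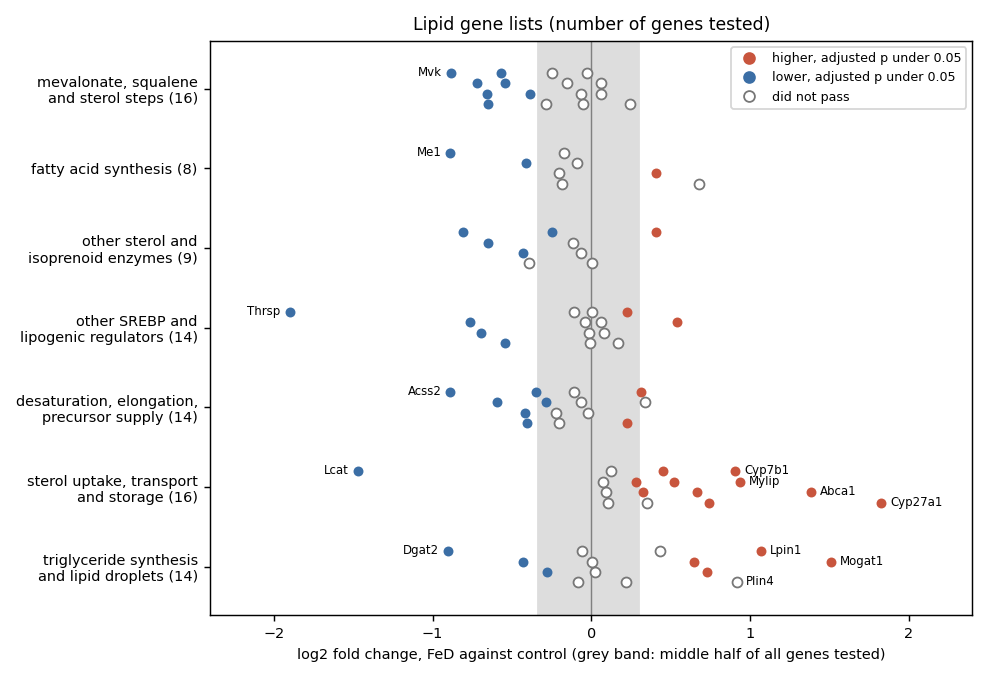
Log2 fold change (FeD against control) of each tested gene in the synthesis groups and in 5 lists of related lipid genes, 1 point per gene; blue and red points passed the test (adjusted P under 0.05, edgeR), open points did not, and the grey band spans the 25th to 75th percentile of all genes tested. The sterol synthesis points lie mainly to the left and the sterol transport points mainly to the right, with Lcat as the lower exception.

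Enzymes of lipid synthesis or sterol hydroxylation that hold heme or non-heme iron, with their electron donors, showed no single direction. Of 13 such genes, 5 were higher (38.5%, against 22.4% of all genes) and 3 were lower (23.1%, near the 23.3% of all genes). Their median log2 fold change was 0.12. The lower genes were the sterol demethylase Cyp51, Msmo1 and Por, the reductase that feeds electrons to Cyp51 and Sqle (-0.53, adjusted P = 0.0052). The higher ones were Scd2, Cyp27a1, Cyp7b1 (0.91), Fads1 (0.22) and Cyb5r3 (0.22). Cyp27a1 and Cyp7b1 were also in the list of sterol uptake, transport and storage.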

How the data were processed

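RNA-seq of 6 kidneys, 3 FeD and 3 control, was analysed from the raw counts per gene that the authors deposited. Per the labels and the methods of the study, single libraries were trimmed with Trimmomatic, aligned to mm9 with TopHat2 2.0.11 and counted with HTSeq, without pooling or normalization. The annotation and the strand setting of the counting are not given in the sources used here, so genes overlapping on opposite strands may share reads. The tables held no other sample columns.

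In R 4.3.3, genes were filtered by filterByExpr, scaled by TMM and compared over the whole table by the quasi-likelihood test of edgeR 4.0.16, with P values adjusted after Benjamini and Hochberg. The procedure was tested on simulated data. The fit took group as its only term, since no label ties a replicate number to a shared litter, batch or day. Deviations of same-numbered kidneys from the group means correlated at -0.162, 0.00 and -0.03 for numbers 1, 2 and 3. No pair of libraries of a group agreed within counting noise. The members, the lists of related genes and the markers were chosen with earlier results of these data known. All members are named, and of each related list up to 4 genes with the smallest adjusted P, plus genes singled out after their values were seen (Lcat, Por and the higher iron-holding enzymes). Positions, exon lengths, overlaps and shared windows came from GENCODE for NCBIM37 (mm9), and promoters from RefSeq. Ratios of 2 members within a kidney were compared by exact permutation tests, 4 in all.

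Alternatives were size factors of the DESeq2 type, library size alone, no filter, at least 10 counts in every kidney, DESeq2 1.42.0, a replicate block, each kidney left out, and, chosen after seeing the data, control 1 and FeD 2 left out together.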

Additional observations from a re-analysis of the deposited data

How the results depend on the processing

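Of the 14 members that passed the test, 11 passed under every one of the 13 alternatives (Insig2, Scap and Scd2 did not), and of the 16 that did not pass, 11 passed under none (Hsd17b7, Dhcr7, Insig1, Scd1 and Elovl6 passed under at least one). The 11 lower members became 11 to 12. The 3 higher members became 4 with DESeq2, 2 without a filter on low counts, 2 with control 1 and FeD 2 left out, and 1 to 6 with single kidneys left out. No member was 2-fold lower in the main comparison, but 2 were (Mvk and Me1) without FeD 2 and also with control 1 and FeD 2 left out, so that single kidneys left out gave 0 to 2. The 0 higher sterol enzymes became 0 to 1, with Hsd17b7 passing without FeD 3. The median of the members ranged from -0.20 to -0.092 on the log2 scale when single kidneys were left out. With the replicate block, 3100 genes were higher and 3344 lower, and 2 members were higher and 11 lower. In deviations from the group means, 0 of the 3 FeD kidneys correlated best with the control kidney of the same number. With 3 kidneys a group, such correlations cannot show whether kidneys shared a litter or batch. Members that did not pass changed sign with single kidneys left out: Tm7sf2 (-0.15 to 0.012), Sc5d (-0.071 to 0.044), Dhcr7 (-0.76 to 0.0098), Srebf1 (-0.0028 to 0.11), Acacb (-0.31 to 0.038) and Acly (-0.17 to 0.023). Lss was at -0.027 with control 1 and FeD 2 left out. The cause of these shifts was not tested beyond the kidney left out. With 3 kidneys a group, differences that were small beside the spread between kidneys could be missed. A pass also does not show that the groups separate. The adrenal marker Cyp21a1 passed (adjusted P = 0.038, edgeR) with overlapping groups and a high value in FeD 2 alone. The effect of depth was not tested.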
